A study of Homo sapiens with 12 samples.

Results

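Neuroendocrine cells of the prostate store hormones and amines in dense-core granules, and a set of granule, vesicle and amine genes is used to recognise prostate cancer cells that take on this lineage. 9 genes of this programme were followed through treatment of 22Rv1 cells with a compound that the series title describes as acting against ONECUT2: SYP, CHGA, CHGB, SCG2, DDC, SNAP25, INSM1, REST and SRRM4. The members were all probe sets that the platform annotation assigns to those symbols, 17 of the 54613 probe sets outside the array controls, and each was assigned to 1 gene only. SYP, CHGA, CHGB and SCG2 had 1 probe set each, DDC and INSM1 had 2 each, and SNAP25, REST and SRRM4 had 3 each. The genes are 9 of 19775 named on the array.

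22Rv1 is an established human prostate carcinoma line, grown here in RPMI-1640 with fetal bovine serum. The 12 arrays fall into 4 groups of 3: vehicle, and 4 h, 6 h or 16 h with the small-compound inhibitor. The labels give no genetic change in any group, no dose and no treatment time for the vehicle cells, and 1 element of the title code, not explained in the labels, is present for the other groups and missing for the 16 h arrays. Time in culture, compound and whatever that element stands for cannot be told apart in a comparison with the 16 h arrays. All groups are 1 cell line, and nothing in the labels says that replicates were separate cultures, so each p-value reflects array-to-array spread, and that spread may be technical.

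REST is a zinc-finger repressor that binds RE1 elements and keeps neuronal and secretory genes silent in other cell types, with corepressors that include RCOR1, SIN3A and histone deacetylases. SRRM4 is a neural splicing factor that promotes inclusion of an exon in REST messages, which yields a truncated protein with little repressor activity. INSM1 is a zinc-finger factor of neuroendocrine differentiation, and ONECUT2 is a homeodomain factor that has been studied as a driver of neuroendocrine features in prostate cancer. Granins such as CHGA, CHGB and SCG2 are the soluble cargo of dense-core granules, SYP is a vesicle membrane protein, SNAP25 is a SNARE of regulated exocytosis, and DDC makes dopamine and serotonin from their amino acid precursors.

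RefSeq promoter windows, of 250 bases before to 50 bases after a start on GRCh38.p14, were at hand for 5 of the 9 genes, with 7 windows in all. They were searched on both strands for the letters TGACGTCA (the cyclic AMP response element, CRE), for its core TGACG, which lies within the longer motif, for CAGCACC and GGACAG (the left and right parts of the RE1 element), and for ATCAAT (a core of ONECUT sites). The stretches below hold the matches that lie before a start. They are shown because they belong to SRRM4 and REST, the 2 regulators whose brightest probe sets changed at 16 h, and to CHGA, which stayed below background. Capitals mark the matching letters.
CHGA, chr14:92923085-92923114, plus strand, CRE beginning 54 bases before the start: ggcggcaccgcTGACGTCAtttccggggtc
SRRM4, chr12:118981421-118981540, plus strand, core of the CRE on the minus strand beginning 47 bases before the start: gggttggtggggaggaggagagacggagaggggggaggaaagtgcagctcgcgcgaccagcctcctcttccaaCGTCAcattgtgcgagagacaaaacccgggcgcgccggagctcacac
REST, chr4:56908728-56908757, plus strand, right RE1 part beginning 170 bases before the second of its starts: gcctgcggggctGGACAGcgatttctgcgc
Of 35116 windows of this length, 1.85% held the full CRE, 24.6% its core, 7.75% the left RE1 part and 20.5% the right part. Of the 7 member windows, 1 held the full CRE, 2 its core, 1 the left RE1 part and 2 the right part. The left part in SRRM4 and a right part in DDC lay after a start and are not shown. No member window held both RE1 parts 2 bases apart, as in 0.0513% of windows, and none held the ONECUT core, found in 6.26%. The member windows were those of REST, DDC, SRRM4, CHGA and SYP. CHGB, SCG2, SNAP25 and INSM1 had no window and were not searched. A match is a run of letters and not a measured binding site.

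The values are log2 signals normalised with GCRMA by the authors. Background was taken, array by array, as the highest of 27 bacterial control probe sets, and lay between 1.87 and 2.28. These were taken as unspiked because their mean log2 signals did not exceed 4. For ACTB, a sign of RNA or labelling quality, the 3' control probe set exceeded the 5' one by a log2 difference of 2.80 ± 0.07 (SD, n = 3) with vehicle and 4.09 ± 0.09 (SD, n = 3) at 16 h. The same difference for GAPDH was -0.46 ± 0.02 (SD, n = 3) with vehicle and -0.43 ± 0.04 (SD, n = 3) at 16 h. The highest bacterial control averaged 2.14 on vehicle arrays and 1.94 on 16 h arrays. 18S ribosomal RNA signal was 9.62 ± 0.29 with vehicle, 8.98 ± 0.14 at 4 h, 8.64 ± 0.19 at 6 h and 11.06 ± 0.10 at 16 h (SD, n = 3 each). The part of these differences in the results was not tested.

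7 of the 9 genes had at least 1 probe set above background on all 12 arrays: SYP, CHGB, SCG2, DDC, SNAP25, REST and SRRM4. CHGA and INSM1 were above it on no array. Of the 17 probe sets, 9 were above background on all 12 arrays, 4 on none and 4 on some. The 4 that never passed were the CHGA probe set, both INSM1 probe sets and SNAP25 1556629_a_at. The 4 between were DDC 214347_s_at and REST 204536_s_at, each above on 5 arrays that included all 3 at 4 h, REST 204535_s_at on 2 arrays, and SRRM4 237828_at on 2 vehicle arrays and 1 array at 6 h. Set against the median of the bacterial controls in place of the highest, all 17 were above background in at least 1 group, compared with 11 here.

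**Figure D1:**
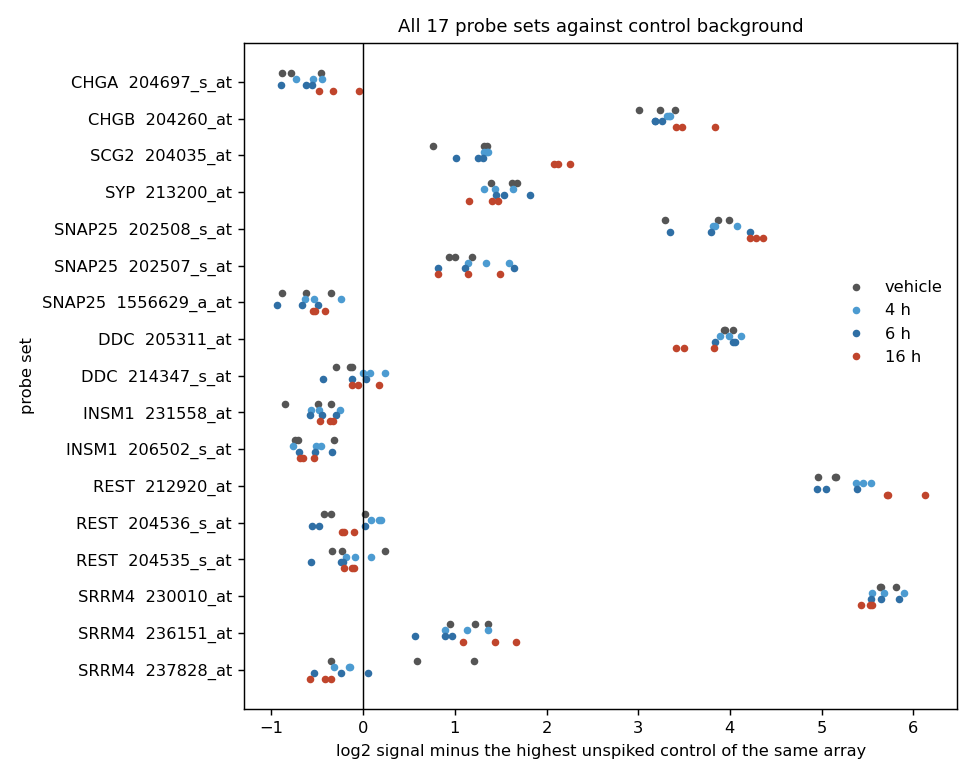
Log2 signal of each of the 17 probe sets minus the highest unspiked control of the same array, 1 point for each of the 12 arrays, coloured by group. Points right of the line at 0 are above background: 9 probe sets lie wholly to its right, 4 wholly to its left and 4 cross it.

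Among the granins, SCG2 rose at 16 h, CHGB did not pass the test at any time, and CHGA stayed below background. SCG2 (probe set 204035_at), a granin that is also processed to the peptide secretoneurin, measured 3.38, 3.05 and 3.43 on the vehicle arrays. It measured 3.38, 3.35 and 3.26 at 4 h and 3.18, 3.34 and 3.29 at 6 h. At 16 h it measured 4.05, 4.25 and 4.00. The 3 earlier groups overlapped, and every 16 h array lay above all other arrays. The 16 h difference from vehicle was 0.81 ± 0.10 (SE) on the log2 scale, or 1.76-fold, with an adjusted p of 6.94e-05 (limma, Benjamini-Hochberg over 12635 genes).

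CHGB (204260_at), a granin that takes part in granule formation, measured 5.42, 5.30 and 5.35 with vehicle and 5.45, 5.41 and 5.71 at 16 h. The groups overlapped, since 1 of the vehicle arrays lay above the second 16 h array. The difference was 0.17 ± 0.11 (SE), with an adjusted p of 0.237 and a 95% interval of -0.07 to 0.40, which spans 0 and a rise as large as that of SNAP25. Leaving out 1 array gave changes from 0.07 (without the third 16 h array) to 0.22 (without the second), and no call. At 4 h CHGB measured 5.35, 5.38 and 5.24, and at 6 h 5.05, 5.34 and 5.46. CHGA (204697_s_at), the granin most used as a serum and tissue marker, measured 1.57, 1.39 and 1.33 with vehicle and 1.64, 1.51 and 1.82 at 16 h. At 4 h and 6 h it lay between 1.30 and 1.49. All 12 values were below the control on their own array, so CHGA had only a bound, was not tested, and is given no direction.

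Of the vesicle genes, SYP fell at 16 h, and 1 of 2 SNAP25 probe sets above background rose. SYP (213200_at), synaptophysin, measured 3.65, 3.68 and 3.79 with vehicle, 3.35, 3.47 and 3.54 at 4 h, and 3.41, 3.90 and 3.73 at 6 h. It measured 3.44, 3.15 and 3.28 at 16 h, and all 3 of those arrays were below all vehicle arrays. SYP fell by 0.42 ± 0.12 (SE), or 1.34-fold, with an adjusted p of 0.0124. Without the second 16 h array the difference was -0.35 and the adjusted p was 0.0547, so the call was lost. The 4 h arrays were also all below the vehicle arrays, with a difference of -0.25 ± 0.12 (SE) that did not pass (adjusted p = 0.463). The share of all genes separated in this way at 4 h was not computed, and the separation is not read as a change. The 6 h arrays overlapped both the vehicle and the 4 h arrays.

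SNAP25 gave different readings by probe set. Its brightest, 202508_s_at, measured 5.90, 5.57 and 6.10 with vehicle, 5.87, 5.84 and 5.98 at 4 h, 6.10, 5.88 and 5.63 at 6 h, and 6.19, 6.28 and 6.23 at 16 h. The 16 h arrays were above all vehicle arrays, which themselves spread over more than the difference. This probe set rose at 16 h by 0.37 ± 0.13 (SE), with an adjusted p of 0.0407. The call was lost in 13 of 21 alternatives, over which the adjusted p ran from 0.0122 to 0.536. Among these were quantile normalisation, median centring, no filter, the mean of probe sets and a fit of only the 2 groups compared. It was lost without vehicle array 1 (0.0716) or 2 (0.166), 4 h array 1 (0.0507) or 2 (0.0518), 6 h array 2 (0.0528), or 16 h array 1 (0.0629), 2 (0.106) or 3 (0.0848), where the number in brackets is the adjusted p. Leaving out a 4 h or 6 h array left the change at 0.37, while leaving out 1 vehicle or 16 h array gave changes from 0.23 (without vehicle array 2) to 0.50 (without vehicle array 3, adjusted p = 0.0122).

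The second SNAP25 probe set, 202507_s_at, measured 3.02, 3.22 and 3.30 with vehicle and 3.11, 2.81 and 3.36 at 16 h. Its groups overlapped, and its 16 h difference was -0.09, with an adjusted p of 0.716 in the fit over 27306 probe sets. The third, 1556629_a_at, lay between 1.34 and 1.67 on all arrays, below background. The mean of the SNAP25 probe sets differed by 0.07 at 16 h (adjusted p = 0.536).

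DDC, aromatic L-amino acid decarboxylase, fell at 16 h. Its brightest probe set, 205311_at, measured 5.95, 6.24 and 6.14 with vehicle, 5.92, 6.15 and 5.90 at 4 h, and 5.93, 6.12 and 6.12 at 6 h. At 16 h it measured 5.38, 5.49 and 5.70, below every other array. The fall was 0.59 ± 0.11 (SE) on the log2 scale, 1.50-fold, with an adjusted p of 0.000954. The second probe set, 214347_s_at, lay between 1.81 and 2.27, at or near background in all groups. Averaging the 2 probe sets gave a difference of -0.30, and the call was kept (adjusted p = 0.00499).

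**Figure D2:**
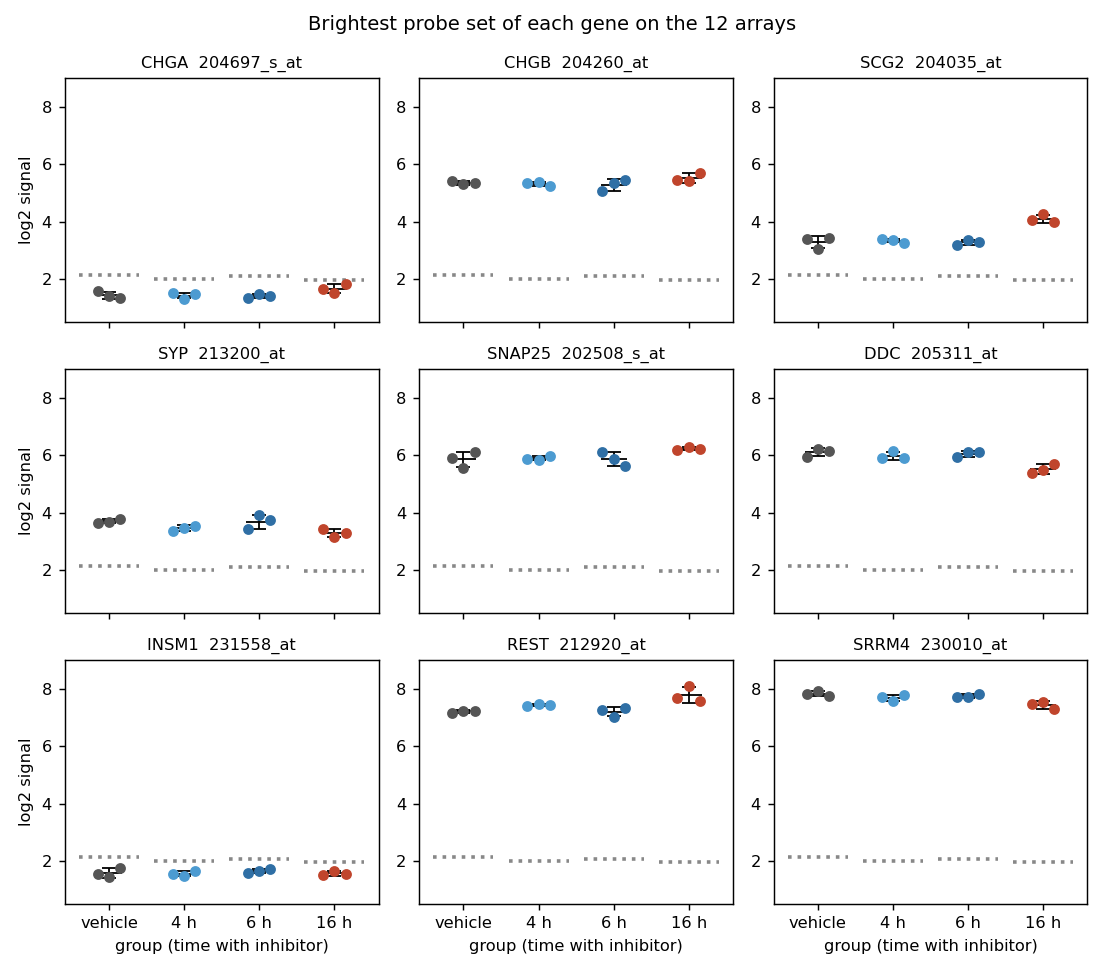
Log2 signal of the brightest probe set of each of the 9 genes on the 12 arrays, by group; points are arrays, horizontal ticks with bars are the mean ± SD of 3 arrays, and dotted lines are the mean of the highest unspiked control in that group. SCG2 and REST lie highest at 16 h, DDC and SRRM4 lowest at 16 h, and CHGA and INSM1 lie under the dotted lines throughout.

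Of the regulators, REST rose and SRRM4 fell at 16 h, each in its brightest probe set, and INSM1 was not detected. REST 212920_at measured 7.17, 7.24 and 7.25 with vehicle and 7.41, 7.48 and 7.44 at 4 h. It measured 7.27, 7.03 and 7.32 at 6 h and 7.68, 8.12 and 7.59 at 16 h. Every 16 h array was above all arrays of the other groups. The 16 h rise was 0.57 ± 0.12 (SE), or 1.49-fold, with an adjusted p of 0.00253. The 4 h arrays also lay above all vehicle arrays, by 0.22 ± 0.12 (SE), which did not pass (adjusted p = 0.551). This separation is not read as a change.

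The other REST probe sets did not follow the brightest. REST 204535_s_at measured 2.26, 1.94 and 1.88 with vehicle and 1.76, 1.89 and 1.75 at 16 h, and REST 204536_s_at measured 2.04, 1.86 and 1.76 with vehicle and 1.74, 1.79 and 1.77 at 16 h. Both were at or below background on most arrays and had means under the filter. At 16 h both were below it on all 3 arrays, so no difference is given. At 4 h REST 204536_s_at measured 2.11, 2.21 and 2.09, above all vehicle arrays, most of which were below background. The mean of the 3 REST probe sets differed by 0.08 at 16 h and did not pass (adjusted p = 0.448), so the REST call rests on 212920_at. Which exons of REST each probe set reads is not given in the sources used here.

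SRRM4 230010_at measured 7.83, 7.93 and 7.75 with vehicle, 7.71, 7.58 and 7.80 at 4 h, and 7.72, 7.74 and 7.82 at 6 h. It measured 7.49, 7.54 and 7.30 at 16 h, below every array of the other groups. The fall was 0.39 ± 0.08 (SE), 1.31-fold, with an adjusted p of 0.00254, and it passed in all 22 alternatives. These include the mean of the SRRM4 probe sets, which takes in 237828_at, below background on all 16 h arrays. No alternative read the gene from 236151_at alone, which was above background on all 12 arrays and did not fall.

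The second SRRM4 probe set, 236151_at, measured 3.24, 3.23 and 3.48 with vehicle, 2.84, 2.98 and 2.84 at 6 h, and 3.41, 3.66 and 2.96 at 16 h. Its 6 h arrays lay below all vehicle arrays, with a difference of -0.43 that did not pass (adjusted p = 0.272), and its 16 h difference was 0.02 (adjusted p = 0.915). The third, 237828_at, measured 3.23, 1.93 and 2.69 with vehicle and 1.56, 1.41 and 1.51 at 16 h. Its vehicle arrays spread widely, and 1 of them was below background. All 3 of its 16 h arrays were below background and have only a bound, and its mean lay under the filter, so no difference is given.

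INSM1 206502_s_at measured 1.70, 1.57 and 1.37 with vehicle and 1.31, 1.46 and 1.18 at 16 h, and INSM1 231558_at measured 1.53, 1.43 and 1.76 with vehicle and 1.50, 1.64 and 1.54 at 16 h. All INSM1 values were below the control of their array, so no direction is given.

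Over the tested genes as a group, nothing passed at the early times and most passed at 16 h. At 4 h, 0 of 7 tested members were called by limma, against 0.459% of all genes and 0.293% of all probe sets tested, and 0 had an unadjusted p under 0.05, against 10.8% of genes. At 6 h, 0 of 7 were called by limma, with a lowest adjusted p of 0.863, against 0.0317% of genes and 0.681% of probe sets, and 0 had an unadjusted p under 0.05, against 8.22% of genes. At 16 h, 6 of 7 were called, where 42.8% of all 12635 genes were called: SCG2, REST and SNAP25 higher, where 26.0% of genes were called higher, and DDC, SYP and SRRM4 lower, where 16.8% were. With each array centred on its median, the share of higher among all called genes at 16 h was 44.5%, against 60.7% here. The 5 members called there kept their directions, and SNAP25 lost its call. Without that centring, the shares over probe sets and arrays were as follows. 6 of the 9 tested probe sets were called, against 39.7% of all probe sets, and the arrays of 6 members did not overlap those of vehicle, against 51.5% of genes.

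The median size of the 16 h change was 0.42 for the 7 members and 0.22 for all tested genes. The largest change among the members was that of SCG2, with 6.25% of tested genes changing by more. The share was 13.0% for DDC, 13.5% for REST, 23.5% for SYP, 26.2% for SRRM4, 28.1% for SNAP25 and 59.3% for CHGB. CHGA and INSM1, which did not reach the filter, are in none of these counts. In bulk cells, fewer cells expressing a gene and less RNA per cell cannot be told apart.

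**Figure D3:**
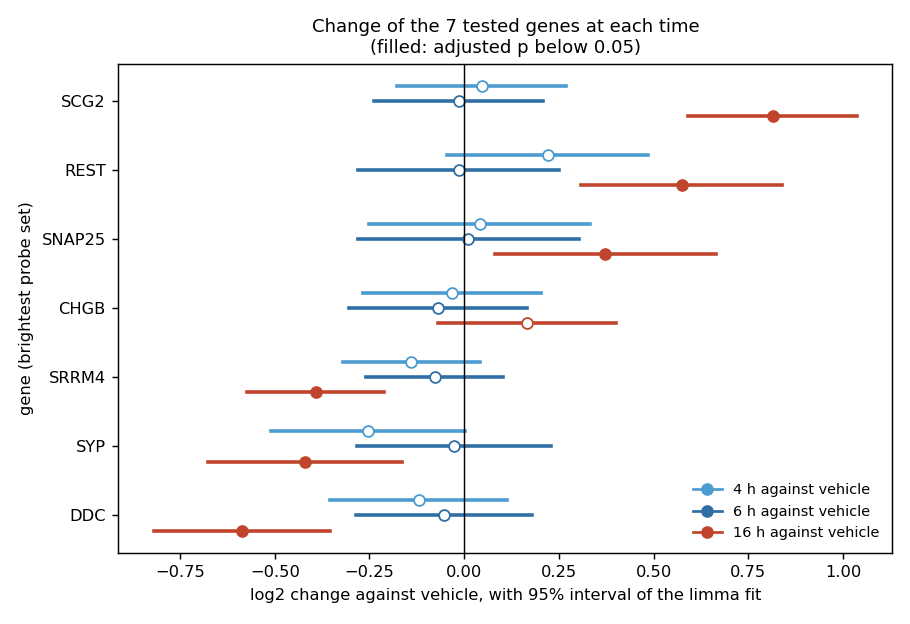
Log2 change of the 7 tested genes against vehicle at 4 h, 6 h and 16 h, with the 95% interval of the limma fit; filled points have an adjusted p below 0.05. Only 16 h points are filled: SCG2 (0.81), REST (0.57) and SNAP25 (0.37) lie right of 0, and SRRM4 (-0.39), SYP (-0.42) and DDC (-0.59) lie left of it.

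The times were also compared with each other. Between 6 h and 4 h, 0 of 7 members were called by limma, against 0.095% of genes, and 0 had an unadjusted p under 0.05, against 9.39%. Between 16 h and 6 h, 6 of 7 were called, against 42.7% of genes. SCG2 was higher at 16 h than at 6 h by 0.83 ± 0.10 (SE; adjusted p = 6.59e-05) and REST by 0.59 ± 0.12 (SE; adjusted p = 0.00225). DDC was lower by 0.53 ± 0.11 (SE), with an adjusted p of 0.00182. These values share the 16 h arrays with the comparison against vehicle and add no independent arrays.

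The other genes of the programme came from 7 lists of related genes, 143 entries in all. Of the 93 genes tested, 44 (47.3%) were called at 16 h, close to the 42.8% of all genes, so no list count below is read as particular to its list. The medians of all 7 lists were lower after median centring of the arrays, as was the median of all tested genes, which went from 0.05 to -0.05. Of 25 other neuroendocrine markers, 16 were tested; 3 rose, 3 fell and 10 did not pass at 16 h, with a median change of 0.04, which was -0.05 after median centring. CALCA, which encodes calcitonin and calcitonin gene-related peptide, rose from 2.93 ± 0.46 to 5.65 ± 0.07 (SD, n = 3 each). The rise was 6.56-fold (adjusted p = 6.21e-07). The vehicle arrays of CALCA ran from 2.60 to 3.46, not far above background, so the fold is imprecise. UCHL1, the neuronal ubiquitin hydrolase PGP9.5, rose by 0.52, and KIF5C, a neuronal kinesin, rose by 0.35. The vehicle arrays of UCHL1 ran from 2.61 to 2.88, also not far above background. PCSK1N, the granin-like inhibitor of a prohormone convertase, fell by 0.39. The others that fell were ENO2, by 0.34, and SYT4, by 0.23. GRP, SST and ACTL6B were above background on no array.

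Of 26 other regulators of the lineage, 16 were tested; 2 rose, 4 fell and 10 did not pass at 16 h, with a median change of 0.15, which was 0.05 after median centring. ONECUT2, the gene whose product the compound is described as inhibiting, rose by 0.53 ± 0.10 (SE; adjusted p = 0.00156). DLL3, the other gene called higher, was above background on 0 of 3 vehicle arrays and on all 3 at 16 h, so no size is given. POU3F2, the neural factor BRN2, fell by 0.52, MYC by 0.52 and EZH2, the catalytic subunit of Polycomb complex 2, by 0.38. The POU3F2 mean at 16 h was 2.93, not far above background. MYC was the 1 gene of these 7 lists called at 4 h, with a change of -0.40 and an adjusted p of 0.0225, which was 0.0877 after median centring. At 6 h limma called 0 of the 93 tested genes of the 7 lists, and 8 of them (8.60%) had an unadjusted p under 0.05, near the share of all genes.

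REST acts through corepressors, and all 17 of the 19 listed that had a probe set of their own were tested. 1 rose, 6 fell and 10 did not pass at 16 h, with a median change of -0.11, which was -0.20 after median centring. HMG20B, a subunit of the LSD1 and CoREST complex, fell from 10.00 ± 0.11 to 8.66 ± 0.30 (SD, n = 3 each), or 2.54-fold (adjusted p = 5.51e-06). CTDSP1, a small phosphatase recruited by REST, fell by 0.51, ZMYND8 fell by 0.44, and CDYL, a bridging protein of REST and histone methyltransferases, rose by 0.62.

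Of 20 other neuronal genes described as targets of REST repression, 14 were tested; 2 rose, 5 fell and 7 did not pass at 16 h, with a median change of -0.21; after median centring 1 was called higher and 7 lower, with a median of -0.30. GAD1, which makes GABA from glutamate, rose from 2.21 ± 0.23 to 3.54 ± 0.41 (SD, n = 3 each) (adjusted p = 0.000103). It was above background on 2 of 3 vehicle arrays and all 3 at 16 h, and no fold is given because the vehicle level lay close to background. MAPK8IP2, a neuronal kinase scaffold, fell by 0.53, TUBB3, a neuronal tubulin, by 0.52 and CPLX1, a regulator of SNARE fusion, by 0.48. Of the members known as REST targets, SCG2 rose, SYP fell and CHGB did not pass. SNAP25 rose in its brightest probe set only, and that call was lost in 13 of 21 alternatives. The list's direction was not tested as a set.

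Of 13 neural splicing regulators, 9 were tested; 2 rose, 3 fell and 4 did not pass at 16 h, with a median change of 0.10; after median centring the median was 0.0086 and neither rise passed. SRRM3, the closest relative of SRRM4, fell by 0.60, and ELAVL2, a neuronal RNA-binding protein, fell by 0.41. The SRRM3 mean at 16 h was 2.58, not far above background. PTBP2, the neural polypyrimidine tract protein, rose by 0.31 and RBFOX2 by 0.26. SRRM1, a more distant relative, fell by 0.18.

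Of 23 SNARE and vesicle genes, 18 were tested; 6 rose, 4 fell and 8 did not pass at 16 h, with a median change of 0.06, which was -0.03 after median centring. NAPA, the SNAP adaptor that helps to take SNARE complexes apart, fell from 8.77 ± 0.12 to 7.42 ± 0.11 (SD, n = 3 each), or 2.55-fold (adjusted p = 2.95e-07). VAMP2, the vesicle SNARE that pairs with SNAP25, fell by 1.01 and SYNGR2, a relative of SYP, by 0.53. VAMP1 rose by 0.56.

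Amine synthesis was thinly represented. Of 17 listed genes, 5 were tested, and 8 were above background on no array: TH, DBH, PNMT, HDC, SLC18A1, SLC18A2, SLC6A4 and AANAT, which act in making, packaging or taking up amines. MAOA, which breaks amines down, fell by 0.73 at 16 h, and SPR, of tetrahydrobiopterin synthesis, fell by 0.39. QDPR and PTS, of the same cofactor pathway, rose by 0.37 and 0.18, but neither passed after median centring. The median change of the 5 was -0.12, and -0.215 after median centring.

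**Figure D4:**
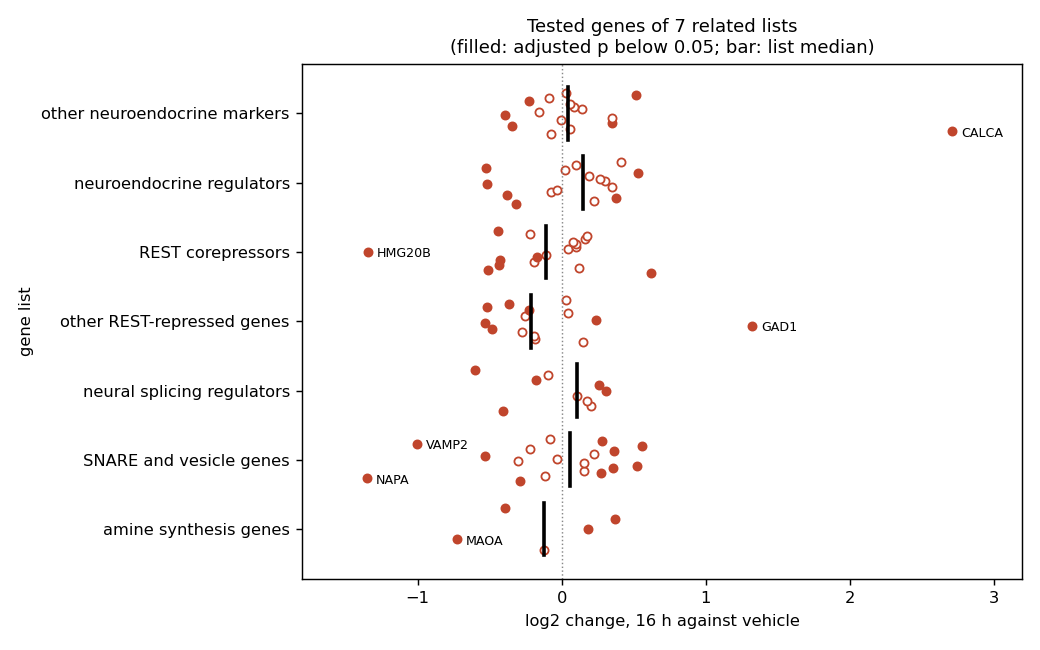
Log2 change at 16 h against vehicle of each tested gene in the 7 related lists; filled points have an adjusted p below 0.05, and bars are list medians. Each list has filled points on both sides of 0, with CALCA (2.71) farthest to the right and NAPA (-1.35) and HMG20B (-1.34) farthest to the left.

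Markers of other cell types were read on the same arrays. Of 10 luminal prostate markers, 8 were tested, all of them above background on all 12 arrays; at 16 h 5 fell and 1 (KRT18, whose rise did not pass after median centring) rose, with a median change of -0.42 and a summed log2 level of 50.2 to 51.2, against 55.2 to 55.8 with vehicle. ACP3 fell by 1.52, KLK2 by 1.30 and HOXB13 by 1.06. The basal keratins KRT5, KRT14 and KRT15 were above background on no array. Of 6 fibroblast markers, 4 were tested; COL1A1 and LUM rose by 2.05 and 1.25, DCN and COL3A1 (above background on 2 of 3 arrays at 16 h) fell by 0.58 and 0.37, COL1A2 and PDGFRB were above background on no array, and the summed level was 16.1 to 17.8 with vehicle and 19.1 to 19.7 at 16 h. The 2 leukocyte and 2 endothelial markers tested had median 16 h changes of -0.06 each, and CD14, CDH5, VWF and KDR were above background on no array. The part of these markers in the changes of the 6 called members was not tested.

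For each tested member, the 2 genes whose values followed it most closely over the 12 arrays were found by Pearson's r, as a description in which the 16 h difference is shared. SCG2 was followed by RNF7 (r = 0.983) and SLC31A1 (r = 0.978), DDC by RUVBL1 (0.971) and NCAPD3 (0.960), and SRRM4 by TMEM106C (0.969) and RANGRF (0.942). REST was followed by the probe set annotated to MIR3916 (0.954) and by ZC3H15 (0.947). SYP was followed by APOC1 (0.947) and GTF2F1 (0.946), CHGB by ARMC5 (0.956) and ZNF653 (0.930), and SNAP25 by SHPK (0.903) and TTC28-AS1 (0.893). ARMC5 and ZNF653, the partners of CHGB, did not pass at 16 h, and the SNAP25 correlations were the lowest of the 7 members. Partners were picked for the highest r among all 12635 tested genes, which favours high values, and no r was tested.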

How the data were processed

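RNA of 12 samples was measured on Affymetrix U133 Plus 2.0 arrays with a 3' in vitro transcription kit, per the labels' protocols. The deposited values are on a log2 scale, 54675 probe sets an array, and GCRMA is named, without a version, in the submitters' processing notes. No scanner files were used here, and the number of arrays limits the precision. Probe sets were named from the platform annotation: 41097 had 1 symbol, 1801 several and 11777 none.

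Each gene was read from the brightest of its probe sets by 12-array mean; the 12635 genes whose mean reached 2.11, the overall median, were tested. A second fit took all 27306 probe sets past that filter. limma 3.58.1 in R 4.3.3 (lmFit, eBayes, 8 residual and 3.69 prior degrees of freedom) fitted the 4 groups over all arrays, two-sided, with Benjamini-Hochberg adjustment and a threshold of 0.05. The fit was tested on simulated data. Genes named were all members and up to 4 of each list with the largest called changes at 16 h. Up to 3 called earlier and 2 by correlation were also named. Luminal and fibroblast genes with the largest changes, SRRM1, ENO2, SYT4, DLL3 and the genes at background were named after their values were seen. The members and lists were chosen with earlier results of these data known. Alternatives changed the scaling, filter, probe set choice, variance prior, array weights, replicate block, groups fitted, background rule and arrays included.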

Additional observations from a re-analysis of the deposited data

Results flagged for a closer look

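6 of 7 members differed between 16 h and 6 h by a test of that difference (limma, adjusted over 12635 genes), where 42.7% of all genes did. SCG2 was higher at 16 h by 0.83 (adjusted p = 6.59e-05), REST by 0.59 (adjusted p = 0.00225) and SNAP25 by 0.36 (adjusted p = 0.0462). DDC differed by -0.53 (adjusted p = 0.00182), SYP by -0.39 (adjusted p = 0.0177) and SRRM4 by -0.31 (adjusted p = 0.00958). The second SRRM4 probe set, 236151_at, was higher at 16 h than at 6 h by 0.45 (adjusted p = 0.0366 over 27306 probe sets), opposite in sign to the brightest SRRM4 probe set. Its arrays at these times overlapped, and its 16 h difference from vehicle was 0.02, which did not pass (limma, adjusted p = 0.915). Between 4 and 6 members were called in this comparison over 22 alternatives.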

How the results depend on the processing

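At 16 h, SCG2, DDC and SRRM4 passed under every alternative run for them (21, 22 and 22). For SRRM4, none of these read 236151_at alone, the other probe set above background on all arrays, which did not fall. SYP lost its call without the second 16 h array, REST with the mean of its probe sets, and SNAP25 in 13 of 21. Between 4 and 6 members were called at 16 h, and none at 4 h or 6 h, in all 22 alternatives; SYP and SCG2 are not tested under a filter at the 75th percentile. Arrays with the same replicate number had 18 correlations of 0 to 0.24, 5 of them over 0.1. Arrays with different numbers had correlations of -0.19 to 0.13, so a weak pairing by number is possible. With the replicate block, 6 members were called at 16 h against vehicle and 5 at 16 h against 6 h. 17 probe sets were above the median of the controls. No 16 h change reversed. At 6 h, quantile normalisation gave 0.022 for SYP, 0.022 for SCG2, 0.002 for DDC and 0.029 for REST, array weights gave 0.049 for SYP and 0.052 for SCG2, and the mean of probe sets gave -0.0098 for SNAP25; at 4 h, CHGB was 0.014 with quantile normalisation and DDC 0.010 with the mean of probe sets, all reversed from changes that did not pass. Leaving out 1 array gave, at 6 h, -0.14 to 0.11 for SYP, -0.16 to 0.048 for CHGB, -0.13 to 0.058 for SCG2, -0.13 to 0.0105 for DDC, -0.13 to 0.13 for SNAP25 and -0.073 to 0.073 for REST, and, at 4 h, -0.062 to 0.0093 for CHGB, -0.071 to 0.12 for SCG2 and -0.10 to 0.16 for SNAP25. The cause was not tested. Over all genes, 25 to 136 were called at 4 h (58 in the fit reported), 0 to 79 at 6 h (4) and 0 to 59 between 6 h and 4 h (12). Signal near the bacterial controls limits CHGA, INSM1 and the dimmer probe sets.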
